A study of Mus musculus with 4 samples.

Results

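Mural cells, the contractile cells that wrap blood vessels, were followed in whole mouse kidney through 10 listed genes. These were Acta2, Myh11, Tagln, Cnn1, Mylk and Des for smooth muscle, Rgs5 and Pdgfrb for pericytes and mesangial cells, and Gja5 and Akr1b7 for the renin-producing lineage. Every probe set that the platform annotation assigned to 1 of these symbols was taken on all 4 arrays. This gave 18 of 22690 probe sets for 9 of the 10 genes, among 12394 genes in all. No probe set was named Akr1b7 in the annotation used here, so that gene has no value below.

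All mice were C57BL/6, labelled male and 17 weeks old. The 4 groups were GN+Captopril, GN+Water, Saline+Captopril and Saline+Water, with 1 array each. GN is a chronic glomerulonephritis, an inflammation of the filtering units, brought about by intraperitoneal horse spleen apoferritin (10 mg on 5 days a week) with lipopolysaccharide as adjuvant (100 µg, 3 times a week). Saline mice were injected with 0.15 M NaCl instead; injections started at about 8 weeks of age and went on for 6 weeks in both cases. Captopril, which inhibits angiotensin converting enzyme, was given at 100 mg/kg/day in drinking water, and kidneys were taken after 9 weeks. The labels describe 6 mice per group and do not say whether an array held RNA of 1 mouse or of several. As a model, repeated foreign protein with an adjuvant combines immune complex disease with repeated endotoxin exposure, and no group received either alone.

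Smooth muscle cells of renal arteries and arterioles carry alpha-actin, smooth muscle myosin and their regulators, many of which are switched on by serum response factor through CArG elements in their promoters. Pericytes and mesangial cells share the platelet-derived growth factor receptor beta, and in injured kidney cells of this lineage can become alpha-actin-positive, collagen-making myofibroblasts. Renin cells of the afferent arteriole belong to the same lineage, and smooth muscle cells along the vessel can take up renin production when angiotensin II signalling is blocked.

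Acta2 and Rgs5, the members at least 1.5-fold apart between both GN arrays, are shown here by the 120 bases before their start as RefSeq's table gives it (GRCm38.p6). That of Acta2 lies at chr19:34255374-34255493 on the minus strand and that of Rgs5 at chr1:169655381-169655500 on the plus strand. The Acta2 window lies within RefSeq's span of that gene, which reaches further upstream, so the start in the table is not the outermost end of the gene. The Rgs5 window ends where the span of its gene begins. Capitals mark CArG-type matches, defined here as CC, then 6 bases of which at least 5 are A or T, then GG, a pattern that reads alike on both strands.
Acta2: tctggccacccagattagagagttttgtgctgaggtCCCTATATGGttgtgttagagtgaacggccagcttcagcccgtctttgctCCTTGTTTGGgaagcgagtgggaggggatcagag
Rgs5: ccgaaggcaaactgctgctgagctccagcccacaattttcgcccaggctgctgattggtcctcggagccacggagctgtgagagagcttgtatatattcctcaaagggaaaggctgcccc
The Acta2 stretch holds 2 matches, which begin 84 and 34 bases before the start, and the Rgs5 stretch holds none. Of all 32851 windows of 250 bases before a start, 8.59% held at least 1 such match and 0.67% at least 2. Among the listed genes, 7 had a window in the table, and 1 of them, Acta2, held a match. A match describes letters only.

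Before the values, it has to be said that 2 arrays stand apart. On the array labelled GN+Water the sex-linked transcripts went against the male label. Its 3 Xist probe sets were at 9.45, 8.97 and 5.57 (log2), against 3.78 to 5.21 over the others, and the Y-linked Eif2s3y was at 3.43 against 8.02 to 8.29. The Saline+Water array had a median of 10.8 over 18 spike-in controls, against 7.46 to 7.89 on the others, and the median over 27 negative controls was 4.17 there, against 3.63 to 3.70. Its correlation with the other arrays over all probe sets (Pearson's r) was 0.945 to 0.966, whereas the others correlated at 0.982 to 0.994. Every value that uses these arrays carries these facts, whose part in the differences was not tested. With 1 array per group no difference has a replicate check, and no p-value or error is given.

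Levels are log2 probe set values as deposited. Where a gene had several probe sets, the one of highest mean level stood for it, and genes at or above 6.27 on average (the 40th percentile over all probe sets) were kept. Of the 9 genes, 7 passed. Myh11 was just inside at 6.37. No member lay just outside, since Cnn1, the nearest below, was at 5.08 and Gja5 at 4.67. A level counted as near background at or below the 90th percentile of the negative controls of its array, which was 4.36 to 4.81.

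Acta2, smooth muscle alpha-actin, the filament protein of contractile cells and of myofibroblasts, stood at 9.44 on GN+Captopril, 10.02 on the array labelled GN+Water, 9.48 on Saline+Captopril and 9.54 on Saline+Water. It was highest on the array labelled GN+Water, and the other 3 arrays lay within 0.10 of one another. This probe set is of a kind that may be shared between transcripts or related genes. The other probe set of Acta2, below the filter, lay between 4.87 and 5.28 and was highest on Saline+Captopril.

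Tagln, the actin-binding protein transgelin, was at 9.37 on GN+Captopril, 9.94 on the array labelled GN+Water, 8.95 on Saline+Captopril and 9.46 on Saline+Water. Here too the array labelled GN+Water was highest, but the lowest was Saline+Captopril.

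Myh11, the heavy chain of smooth muscle myosin and among the most specific markers of mature smooth muscle, was at 6.24 on GN+Captopril, 6.31 on the array labelled GN+Water, 6.25 on Saline+Captopril and 6.69 on Saline+Water. The first 3 of these lay within 0.07 of one another and Saline+Water stood above them. The second Myh11 probe set had the same array on top, at 4.94, and was near background on GN+Captopril, GN+Water and Saline+Captopril.

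Cnn1, calponin, which damps actomyosin activity, was below the filter, at 4.68 on GN+Captopril, 4.93 on the array labelled GN+Water, 4.84 on Saline+Captopril and 5.88 on Saline+Water. As with Myh11, Saline+Water stood apart from arrays that lay close together.

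Mylk, the kinase that phosphorylates myosin light chain to start contraction, had 3 probe sets that did not order the arrays alike. The first gave 9.30 on GN+Captopril, 9.36 on the array labelled GN+Water, 9.43 on Saline+Captopril and 8.70 on Saline+Water. The second gave 8.84 on GN+Captopril, 8.77 on the array labelled GN+Water, 8.84 on Saline+Captopril and 9.17 on Saline+Water. Saline+Water was thus lowest by the first and highest by the second, and highest by the third at 6.42 against 5.84 to 5.96. Over the remaining 3 arrays no Mylk probe set spanned more than 0.13.

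Des, the intermediate filament desmin of muscle, also made by mesangial cells and injured podocytes, was at 7.25 on GN+Captopril, 7.70 on the array labelled GN+Water, 7.36 on Saline+Captopril and 7.75 on Saline+Water. Both water arrays lay above both captopril arrays. In its second probe set, below the filter, the levels were 4.89, 4.90, 5.28 and 5.49 in the same order of arrays, so that both GN arrays lay below both saline arrays.

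Rgs5, a regulator of G-protein signalling that marks pericytes, had 4 probe sets past the filter. The first was at 9.36 on GN+Captopril, 10.01 on the array labelled GN+Water, 9.49 on Saline+Captopril and 8.57 on Saline+Water. All 4 probe sets were highest on the array labelled GN+Water. Without Saline+Water, the spread over the other arrays was 0.30 to 0.65. Saline+Water was lowest in 3 probe sets, by up to 1.01 below the next array, while in the fourth GN+Captopril was lowest at 6.93.

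Pdgfrb, the receptor for platelet-derived growth factor on pericytes, mesangial cells and fibroblasts, was at 8.73 on GN+Captopril, 9.21 on the array labelled GN+Water, 8.54 on Saline+Captopril and 7.83 on Saline+Water. Its second probe set gave 7.06 on GN+Captopril, 7.18 on the array labelled GN+Water, 6.80 on Saline+Captopril and 7.39 on Saline+Water. Without Saline+Water both probe sets put the arrays in the same order, with the array labelled GN+Water first, then GN+Captopril, then Saline+Captopril. Saline+Water was last by the first probe set and first by the second.

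Gja5, the gap junction protein connexin 40 that couples renin cells and arterial endothelium, was at 4.27 on GN+Captopril and 4.33 on the array labelled GN+Water, both near background, at 4.64 on Saline+Captopril and at 5.45 on Saline+Water. The order cannot be read where levels are near background. With Gja5 below the filter and Akr1b7 not named, no listed gene specific to renin cells was measured above the filter, and the values that follow describe smooth muscle and pericyte genes.

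At low levels the probe sets had the lowest array in common by value, but not the whole order. All 6 member probe sets below the filter were lowest on GN+Captopril, and 5 of the 6 were highest on Saline+Water. Gja5 and the second Myh11 probe set were near background on 2 and 3 arrays, GN+Captopril among them. For these probe sets the lowest array cannot be read. Over all 9076 probe sets below the filter the array medians were 4.83 on GN+Captopril, 4.87 on the array labelled GN+Water, 4.90 on Saline+Captopril and 5.11 on Saline+Water. Of the 12 member probe sets past the filter, 7 were highest on the array labelled GN+Water, 4 on Saline+Water and 1 on Saline+Captopril, and none on GN+Captopril.

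**Figure D1:**
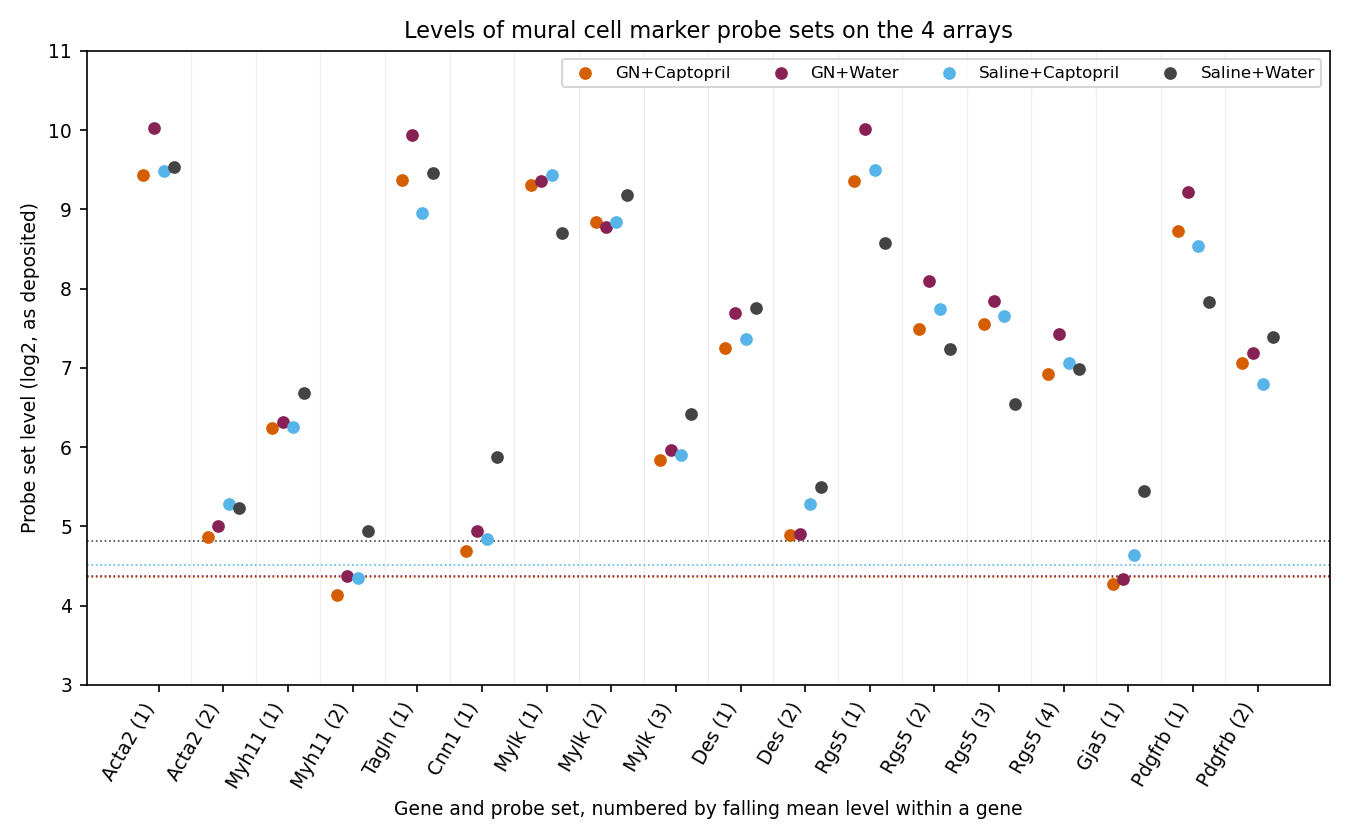
Level (log2, as deposited) of each of the 18 probe sets on the 4 arrays, 1 point per array; dotted lines give the 90th percentile of the negative controls of the array of that colour. Acta2, Tagln, Rgs5 and Pdgfrb (first probe sets) are highest on GN+Water, while probe sets at low levels are mostly highest on Saline+Water.

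By its title the study is about interstitial injury in GN under inhibition of angiotensin converting enzyme, and GN+Captopril is therefore set first against the array labelled GN+Water. The marker genes were lower on GN+Captopril. Rgs5 was 1.57-fold lower (log2 difference −0.65), Acta2 1.5-fold (−0.59), Tagln 1.48-fold (−0.57), Pdgfrb 1.40-fold (−0.48) and Des 1.36-fold (−0.44). Myh11 (−0.07) and Mylk (−0.06) differed little. All 7 genes past the filter had a negative difference, where 44.8% of the 8207 genes past the filter did. The members were chosen with earlier results of these data known, so this contrast is a description only. The members' median was −0.48, against 0.003 over all genes.

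At 1.5-fold, 2 of 7 genes were lower, Rgs5 and Acta2, beside a background of 4.52% of genes, and 0 of 7 were higher, beside 3.70%. Acta2 was at the threshold itself, since 1.5-fold is 0.585 on the log2 scale, and with each array centred on its median it no longer passed. Under quantile or cyclic loess normalisation 3 genes passed, Tagln being the added one. Of the 18 probe sets, which cover 9 genes, 17 were lower on GN+Captopril, where 49.0% of all 22690 probe sets were. The exception was the second of Mylk, at 0.07. Gja5 and the second Myh11 probe set, counted among the lower ones, were near background on both of these arrays. In Rgs5 the 4 probe sets differed by −0.65, −0.60, −0.30 and −0.51, so 2 of them reached 1.5-fold. In Pdgfrb the second probe set differed by −0.12.

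Other genes of the same cells and of other kidney cells were set beside these, in the same pair of arrays. Among 12 other smooth muscle genes past the filter, of 22 listed, the median was −0.29, with 3 at least 1.5-fold lower on GN+Captopril and 0 higher. They were Flna, the actin cross-linker filamin A, at −0.87, Cald1, caldesmon, at −0.66 and Myl9, the regulatory light chain of smooth muscle myosin, at −0.62. Csrp1, a cytoskeletal LIM protein, was at −0.43 and Tpm2, a tropomyosin, at −0.43. Of 13 other pericyte and mesangial genes past the filter, of 24 listed, 0 reached 1.5-fold in either direction, with a median of −0.07. Pdgfra, the alpha receptor of platelet-derived growth factor, was at −0.58, Mgp, an inhibitor of calcification made by vascular cells, at −0.50, Ebf1 at −0.40 and Thy1 at −0.34. Kcnj8, the channel subunit Kir6.1 of mural cells, differed the other way at 0.53.

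Of 8 other renin cell genes past the filter, of 22 listed, 1 was lower by this threshold, Rgs2, a brake on angiotensin receptor signalling, at −0.59; Adcy6, an adenylyl cyclase, was at −0.40. The median was −0.13. No probe set was named Ren1 or Ren2 in the annotation used here, so the list has no value for renin itself. In whole kidney its values cannot be assigned to renin cells, in this or the other comparisons.

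Markers of other cells also differed in the same pair of arrays. Of 12 myofibroblast matrix genes 8 were at least 1.5-fold lower on GN+Captopril, with a median of −0.80, and Col3a1 was at −0.93, Col1a1 at −1.004 and Lum at −1.39. The other Col1a1 probe set, also past the filter, stood at 6.53 on both of these arrays. Of 11 macrophage genes 9 were lower, with a median of −0.74. The 7 podocyte and 12 endothelial genes had medians of −0.31 and −0.21 with none at 1.5-fold in either direction. As with the members, all matrix, macrophage and podocyte genes past the filter were negative, the highest being −0.32, −0.45 and −0.06. Endothelial genes ran from −0.42 to 0.535. The summed linear level of the macrophage list was 11629 on GN+Captopril and 19491 on the array labelled GN+Water, and no macrophage marker was near background on all arrays. The part of these cells, and of the sex-linked difference, in the marker genes' lower levels was not tested. In whole kidney, fewer cells of a type and less RNA per cell cannot be told apart.

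The next comparison asks how GN kidneys differed from saline kidneys in mice on water. By their representative probe sets Rgs5 was 2.71-fold higher (1.44), Pdgfrb 2.60-fold (1.38) and Mylk 1.57-fold (0.66) on the array labelled GN+Water. Acta2 was 1.40-fold higher (0.49) and Tagln 1.40-fold (0.48), short of 1.5-fold. Des (−0.06) and Myh11 (−0.37) were lower. In all, 3 of 7 genes passed 1.5-fold upward, beside a background of 19.6% of genes, and 0 of 7 downward, beside 15.3%. The median was 0.49, against 0.00 over all genes.

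Of Rgs5, Pdgfrb and Mylk, Rgs5 was the 1 gene with all its probe sets on the same side, with differences of 0.45 to 1.44 over 4. Pdgfrb was 1.38 by one probe set and −0.21 by the other. Mylk was 0.66 by the first of 3 and −0.40 and −0.46 by the others. Below the filter, all 6 member probe sets were lower on the array labelled GN+Water, as were 70.4% of all probe sets below the filter.

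Against Saline+Captopril as baseline, an alternative that leaves out the Saline+Water array, the order of the genes was another. Tagln was then 1.98-fold higher (0.99) and Pdgfrb 1.59-fold (0.67), while Acta2 (0.55) and Rgs5 (0.52) fell short of 1.5-fold and Mylk was at −0.07. Thus 2 of 7 genes passed 1.5-fold upward, beside 6.31% of all genes, and 0 downward, beside 3.03%. In 6 of the genes there was a positive difference, beside 43.9% of all genes, and the median was 0.52. In this setting both Pdgfrb probe sets (0.67 and 0.38) and all 4 of Rgs5 (0.19 to 0.52) were higher. Myh11 (0.06) and Des (0.33) were then higher as well. This pair differs in captopril as well as in GN. For GN+Captopril relative to Saline+Water, the members' median was −0.08, with Tagln at −0.08 and Acta2 at −0.10. In that pair Pdgfrb (0.90), Rgs5 (0.79) and Mylk (0.60) were higher, and Des (−0.50) and Myh11 (−0.44) lower.

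Other genes of the same cells were mixed in direction on the array labelled GN+Water relative to Saline+Water. The median over 12 other smooth muscle genes was 0.13; 4 of them passed 1.5-fold upward and 2 downward. Cald1 was at 2.70, Flna at 1.32, Tpm2 at 1.17 and Csrp1 at 0.91, and Smtn, the smooth muscle protein smoothelin, at −0.75. Their other probe sets past the filter gave 2.41 and 0.09 for Cald1, 0.25 for Tpm2 and 0.73 for Csrp1. With Saline+Captopril as baseline Cald1 was at 0.66, Flna at 1.17 and Csrp1 at 0.69. Of 13 pericyte and mesangial genes 4 were higher and 1 lower, with a median of 0.09. Pdgfra was at 2.12 (0.32 by its other probe set), Mgp at 1.23, Ebf1 at 0.90, Thy1 at 0.68 and Kcnj8 at −0.64. Relative to Saline+Captopril, Pdgfra was at 0.89 and Mgp at 0.87. Of 8 renin cell genes 3 were higher, with a median of 0.05, namely Rgs2 at 1.96, the Notch effector Rbpj at 0.65 and Crip1 at 0.60. In the myofibroblast matrix list 10 of 12 genes passed 1.5-fold upward, the median being 1.37, and in the macrophage list 11 of 11, the median being 2.17. Their part in the marker genes' values was not tested here either.

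Adipoq, a fat cell gene, was at 8.92 on GN+Captopril, 8.25 on the array labelled GN+Water, 7.77 on Saline+Captopril and 6.24 on Saline+Water; for GN+Water minus Saline+Water, 3 of 4 adipose genes past the filter passed 1.5-fold upward. Fat around the kidney holds vessels and pericytes, and its part in the values above was not tested. Of the skeletal muscle list 2 of 13 genes passed the filter, Tnni2 and Pvalb, and the related actin gene Acta1 did not. Tnni2 passed by a probe set of a kind that may be shared, at 7.1 on all 4 arrays. Pvalb ran from 5.57 on GN+Captopril to 9.31 on Saline+Water. Whether either came from skeletal muscle was not tested.

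**Figure D2:**
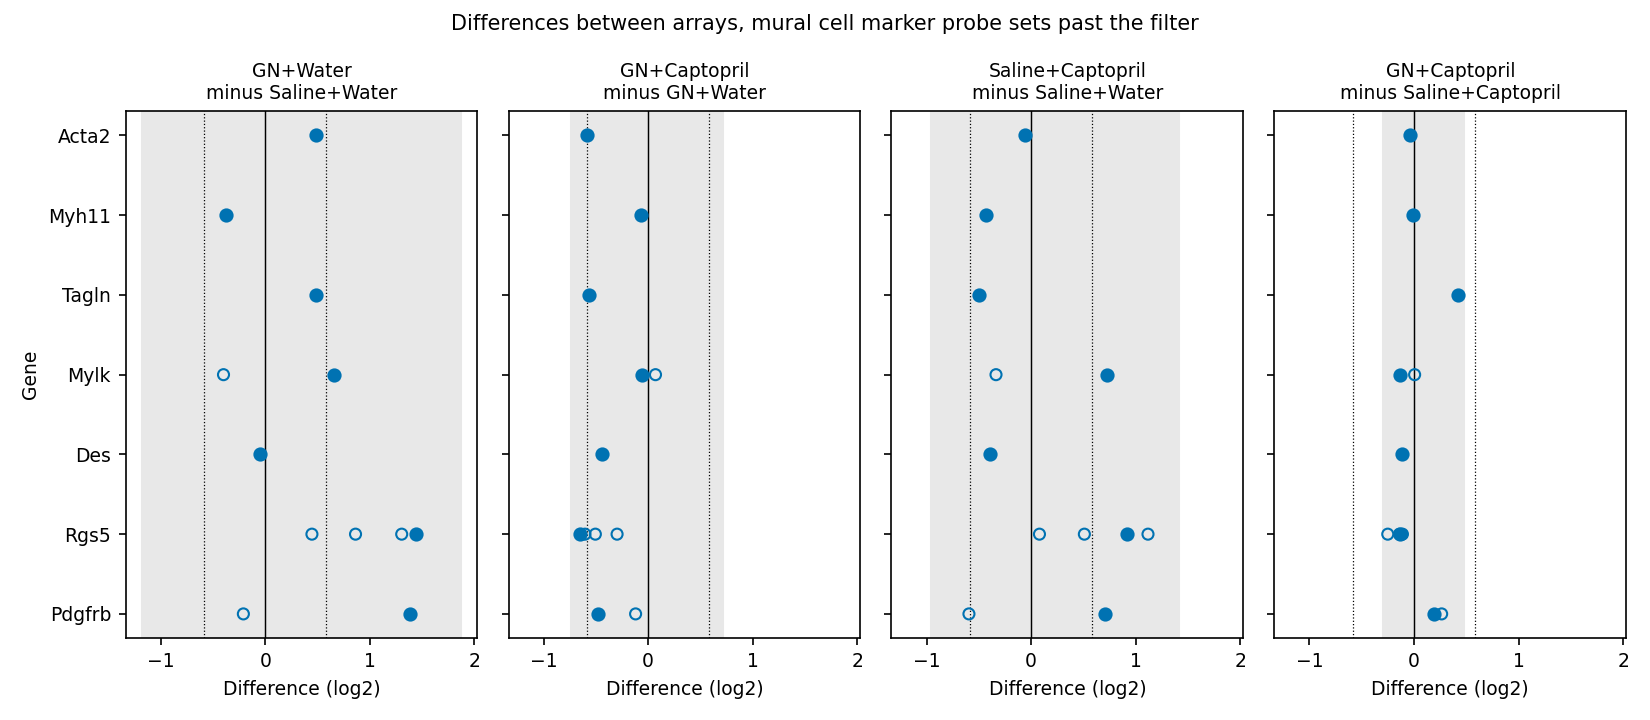
Log2 difference between 2 arrays for the member probe sets past the filter, in the 4 comparisons; filled points represent the gene and open points are its other probe sets. Grey spans hold the middle 95% of the 8207 genes and dotted lines mark 1.5-fold. In GN+Captopril minus GN+Water the points lie at or left of zero except 1 of Mylk, whereas in both comparisons with Saline+Water the probe sets of Mylk and Pdgfrb lie on both sides.

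In saline-injected mice the comparison sets captopril against water without GN, and it uses the Saline+Water array described above as standing apart. On Saline+Captopril, relative to Saline+Water, Rgs5 was 1.89-fold higher (0.92), Mylk 1.66-fold (0.73) and Pdgfrb 1.63-fold (0.71). Tagln (−0.50), Myh11 (−0.43), Des (−0.39) and Acta2 (−0.06) were lower. At 1.5-fold 3 of 7 genes were higher, beside 15.6% of all genes, and 0 of 7 lower, beside 10.2%. The median was −0.06, against 0.01 over all genes.

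The probe sets again disagreed. Pdgfrb was 0.71 by one and −0.59 by the other, Mylk 0.73, −0.34 and −0.52, and Rgs5 0.92, 0.51, 1.12 and 0.08. Contractile genes outside the members did not share a direction either. Of 12 smooth muscle genes 2 passed 1.5-fold upward, Cald1 at 2.03 and Tpm2 at 0.74. In the other direction 3 passed, Smtn at −1.05, Mrtfa, a coactivator of serum response factor, at −0.78 and Tpm1 at −0.68. The other probe sets past the filter gave 1.91 and −0.36 for Cald1, −0.28 for Tpm2 and 0.04 for Tpm1. Of 13 pericyte and mesangial genes Pdgfra was higher at 1.23 and Angpt1, a ligand of the endothelial receptor Tek, lower at −0.62. The other Pdgfra probe set was at −0.09. Of 8 renin cell genes Rgs2 was higher at 1.36 and none lower. Rgs2 stood at 7.85 on Saline+Captopril, against 6.48 on Saline+Water, and both GN arrays, at 7.85 and 8.44, also lay above Saline+Water.

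GN+Captopril against Saline+Captopril is the pair that uses neither array described above as standing apart. Here the marker genes were close to each other on both arrays. Tagln was 1.34-fold higher (0.42) and Pdgfrb 1.14-fold (0.19) on GN+Captopril. Rgs5 (−0.13), Mylk (−0.13), Des (−0.11), Acta2 (−0.04) and Myh11 (−0.01) were slightly lower. At 1.5-fold 0 of 7 genes were higher, beside 1.85% of all genes, and 0 of 7 lower, beside 0.207%. The median was −0.04, against 0.00 over all genes. No test was run, the replicate spread being unknown, and small values do not show that the arrays were alike. Genes of neighbouring tissues did differ in this pair, with Hsd3b1 of the adrenal cortex at 1.43 and Adipoq at 1.15. At 1.5-fold 1 of 3 adrenal cortex and 2 of 4 adipose genes past the filter were higher on GN+Captopril, and 0 lower. The part of such tissue in the marker values was not tested.

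By probe set, both of Pdgfrb were higher (0.19 and 0.26) and all 4 of Rgs5 lower (−0.11 to −0.25). Of 12 other smooth muscle genes none reached 1.5-fold in either direction; Tpm1 was at 0.44, Flna at 0.29 and Csrp1 at 0.25. Thy1 was the 1 of 13 pericyte and mesangial genes at least 1.5-fold higher, at 0.64, with Mgp at 0.38 and Pdgfra at 0.31. Crip1, a LIM protein, was the 1 of 8 genes of the renin cell list at that threshold, at 0.67. Which cells of the kidney carried Thy1 or Crip1 was not tested. In the same pair the macrophage list had 10 of 11 genes at least 1.5-fold higher, with a median of 1.22, and the myofibroblast matrix list 4 of 12, with a median of 0.40, among them Vim, the intermediate filament vimentin, at 0.86 and Col3a1 at 0.78.

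**Figure D3:**
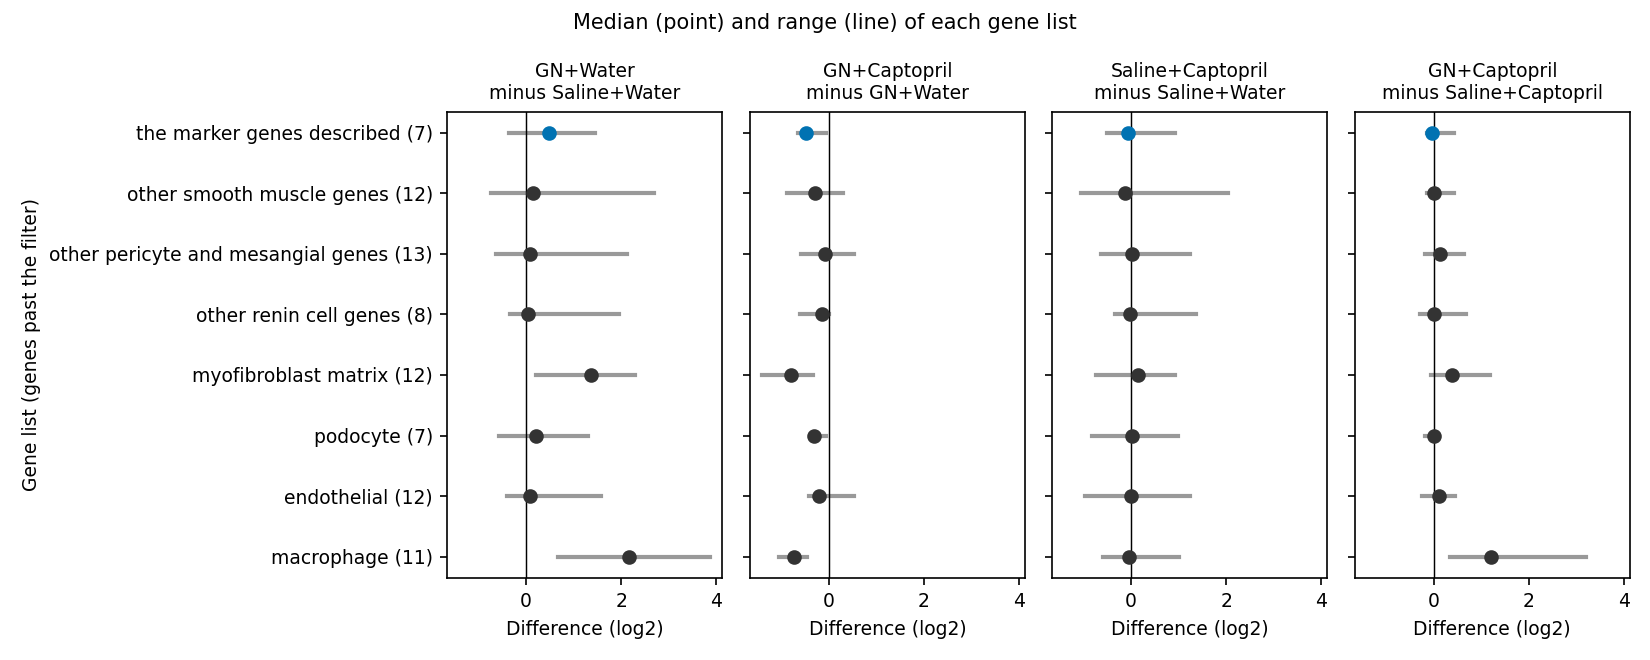
Median (point) and lowest to highest value (line) of the log2 difference over the genes of each list past the filter, in the 4 comparisons. The marker genes have a median of −0.48 in GN+Captopril minus GN+Water and −0.04 in GN+Captopril minus Saline+Captopril, where the macrophage median is 1.22.

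Set side by side over pairs that share no array, the GN difference was lower on captopril than on water in 6 of 7 genes, where 50.3% of all genes had a lower one. For Rgs5 it was −0.13 on captopril and 1.44 on water, for Pdgfrb 0.19 and 1.38, for Mylk −0.13 and 0.66, and for Acta2 −0.04 and 0.49. Tagln had 0.42 on captopril and 0.48 on water, and Des −0.11 and −0.06, so that both were counted on small gaps. Myh11 was the exception, with −0.01 on captopril and −0.37 on water. Other probe sets went against this: the second of Pdgfrb had 0.26 on captopril and −0.21 on water, and the second of Mylk 0.01 and −0.40. Under quantile normalisation the count was 5 of 7 genes. With the mean of all probe sets, and also without probe sets of shared kinds, it was 4 of 6. Without a filter it was 6 of 9, since Cnn1 (−0.15 on captopril and −0.94 on water) and Gja5 went the way of Myh11. The captopril difference of Rgs5 was −0.65 in GN kidneys and 0.92 in saline kidneys, and that of Pdgfrb −0.48 and 0.71. Tagln had −0.57 in GN kidneys and −0.50 in saline kidneys. Each of these contrasts takes in both the array labelled GN+Water and Saline+Water.

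**Figure D4:**
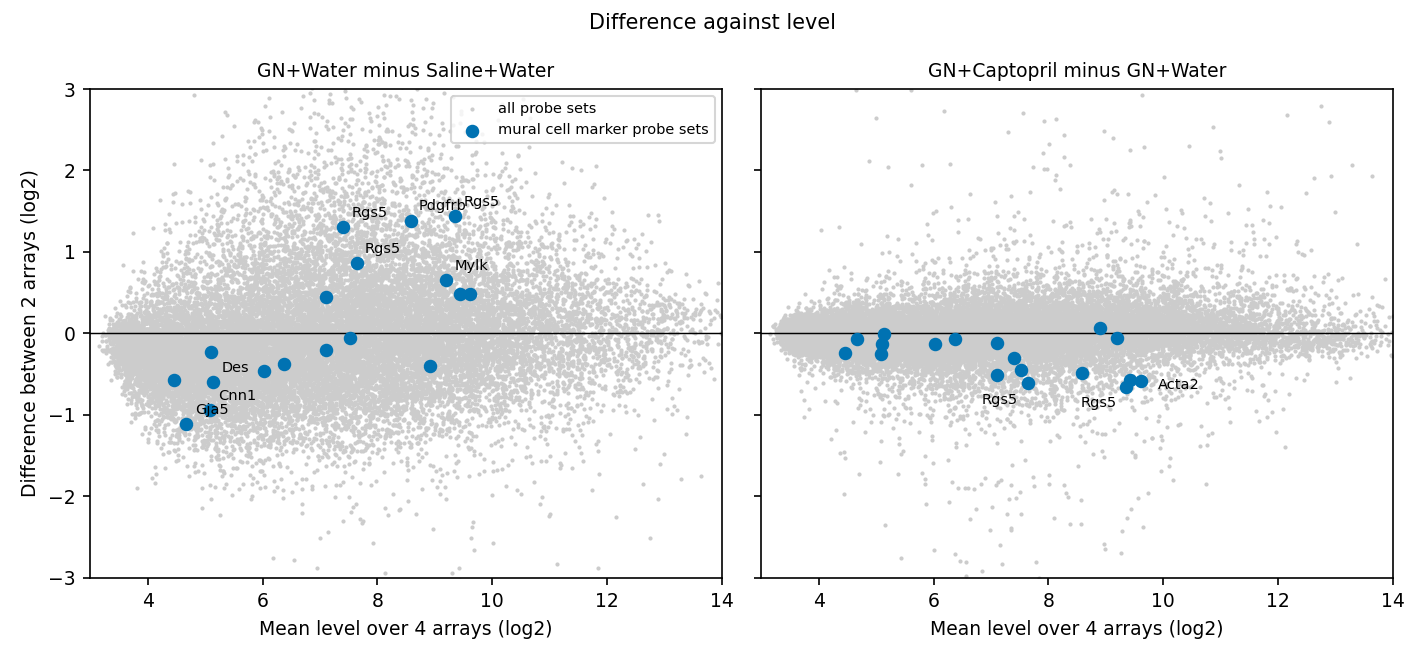
Log2 difference between 2 arrays against the mean level over the 4 arrays, for all probe sets (grey, those beyond the axes are not drawn) and the 18 member probe sets (blue, named where at least 1.5-fold). In GN+Water minus Saline+Water the member probe sets at low levels lie below zero with most others. In GN+Captopril minus GN+Water 17 of 18 lie below zero, beside 49.0% of all probe sets.

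The members with the widest range over the 4 arrays were Rgs5 (1.44), Pdgfrb (1.38) and Tagln (0.99). The genes with the most similar profile were taken as those with the smallest root mean square distance over the 4 arrays, each profile centred on its own mean. For Rgs5 they were Dkk2, Tfpi2, Sim1, Ier5 and 2010204K13Rik, at distances of 0.03 to 0.06. For Pdgfrb they were Serpinb6a, Tm4sf1, Celf2, S100a16 and Btg2, at 0.03 to 0.05. For Tagln they were Gabpb1, Apobec3, Rcn3, Lgals3bp and Slfn2, at 0.05 to 0.08. With 4 arrays and 8207 genes such likeness is a description only.

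Ace is the gene of the enzyme that captopril inhibits. Its first probe set was at 8.82 on GN+Captopril, 8.30 on the array labelled GN+Water, 8.79 on Saline+Captopril and 9.48 on Saline+Water. The second also had the array labelled GN+Water lowest, at 8.01, and Saline+Water highest, at 9.92. Among the member probe sets past the filter, the second of Mylk had the same arrays at both ends.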

How the data were processed

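Biotinylated cRNA from 6 µg of total RNA of whole kidney was used for Affymetrix arrays according to the labels. Per the deposited table, each of 22690 probe sets has 1 log2 value per array (3.10 to 14.7; the log2 scale is judged from this range). The submitters' processing notes name GCOS and RMA, with no version or role; neither labels nor headers state how background was corrected, how arrays were normalised or which build defined the probe sets. Values were used as deposited.

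Of the probe sets, 20393 had 1 symbol, 691 several and 1606 none; 20364 were named through the Entrez ID with a table of assembly GRCm38.p6. Sequences are RefSeq's. With 1 array per group there are 0 residual degrees of freedom; an additive fit would leave 1 and was not run. Each comparison is a log2 difference between 2 arrays, counted at 1.5-fold over all genes past the filter (Python 3.11.15, pandas 2.3.3; counting was tested on simulated data). The number of arrays limits the precision. Named genes were the members, up to 5 per related list and comparison, up to 3 per other marker list, the 5 nearest profiles of 3 members, sex-linked genes and Ace. Marker lists were smooth muscle, pericyte and mesangial, renin cell, myofibroblast matrix, podocyte, endothelial, macrophage, skeletal muscle, adrenal cortex and medulla, adipose, sex-linked and androgen-responsive genes. Members and lists were chosen with earlier results of these data known. Alternatives used limma 3.58.1 for quantile and cyclic loess normalisation.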

Additional observations from a re-analysis of the deposited data

Results flagged for a closer look

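Rgs5 differed between captopril and water in opposite directions in the 2 disease states. On GN+Captopril it was lower than on the array labelled GN+Water by −0.65, and on Saline+Captopril it was higher than on Saline+Water by 0.92. Each difference is at least 1.5-fold and rests on 1 array per group, and the difference between them was not tested. All 4 Rgs5 probe sets had a negative value in GN kidneys and a positive one in saline kidneys.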

How the results depend on the processing

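The limits are those of 4 arrays without replicates: no spread between animals is known, and a value was called moved when it shifted by over 1.5-fold, or a count by over 1.5 times. The members' median shifted by more than this once: for Saline+Captopril minus Saline+Water it was 0.71 with a filter at the 60th percentile, over 5 genes. For GN+Water minus Saline+Water it shifted by less but turned sign, to −0.08, with GN+Captopril as the GN array, and was 0.21 to 0.66 under the other alternatives. Of 121 alternative counts and medians, 106 were unmoved. These include medians under a changed fold threshold, which could not move because a median does not use it. A count that went from 3 to 2 was also called unmoved. No paired analysis was possible because each group has 1 array. A filter at the 40th percentile, scaling, choice of probe set and threshold were varied in turn.

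For GN+Captopril minus GN+Water, the genes at least 1.5-fold lower numbered 1 with median centring, 1 without probe sets of shared kinds, 0 with the mean of all probe sets, 0 at 2-fold, 3 with quantile normalisation, 3 with cyclic loess and 5 at a lower fold threshold, in place of 2. For GN+Water minus Saline+Water, the higher genes numbered 2 with quantile normalisation, 2 with the mean of all probe sets and 2 without shared kinds, in place of 3. They also numbered 2 at 2-fold and 2 with Saline+Captopril as baseline, and stayed at 3 with GN+Captopril as the GN array. At the lower threshold 5 were higher and 1 lower, and 2 were lower without a filter, Cnn1 and Gja5. For Saline+Captopril minus Saline+Water, the higher genes numbered 2 without shared kinds, 1 with the mean of all probe sets and 0 at 2-fold, in place of 3. The lower genes there numbered 2 without a filter, 1 without shared kinds and 3 at the lower threshold, in place of 0. For GN+Captopril minus Saline+Captopril, 1 was higher at the lower threshold.

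Of the differences of at least 1.5-fold, those of Mylk and Pdgfrb turned direction where Saline+Water was used. For GN+Water minus Saline+Water, Mylk was −0.0686 with the mean of all probe sets and −0.0743 with Saline+Captopril as baseline, and Pdgfrb −0.21 without shared kinds. For Saline+Captopril minus Saline+Water, Mylk was −0.0426 with the mean of all probe sets and Pdgfrb −0.59 without shared kinds. The cause was not tested. For GN+Captopril relative to Saline+Water, which leaves out the array labelled GN+Water, Pdgfrb was 0.90, Rgs5 0.79 and Mylk 0.60. Acta2 was −0.10, Tagln −0.08, Des −0.50 and Myh11 −0.44. With Saline+Captopril as baseline Myh11 was 0.06 and Des 0.33, also opposite to their signs with Saline+Water. Myh11 for GN+Captopril minus Saline+Captopril was 0.03 with cyclic loess. Levels near the negative controls on 2 arrays limit Gja5.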

Other observations

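Tissues next to the kidney and sex-dependent kidney genes were also read on the 4 arrays. Of 10 adrenal cortex genes 3 passed the filter, and Hsd3b1, a steroid dehydrogenase, was at 7.39 on GN+Captopril, 5.83 on the array labelled GN+Water, 5.96 on Saline+Captopril and 6.01 on Saline+Water. Of 6 adrenal medulla genes 2 passed, with medians of −0.03 for GN+Captopril minus GN+Water and −0.48 for GN+Water minus Saline+Water. The 9 androgen-responsive kidney genes had a median of 5.20 for GN+Captopril minus GN+Water, with 7 at least 1.5-fold higher, and of 0.09 for GN+Captopril minus Saline+Captopril, with none.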
